A study of Gallus gallus with 24 samples.

Results

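The hypothalamus of female broiler chickens was compared with that of males in 24 libraries, 12 of each sex, which are all the libraries of the series. The labels give no sex, so the birds were selected on measured W chromosome transcripts. For each bird the mean log2(CPM + 1) was taken over the 30 genes placed on chromosome W that had at least 240 counts summed over the birds (CPM is the count per 1e6 counts of the library). The 12 highest birds were called female and the 12 lowest male. The birds were broilers of the strain labelled Ros 308, sampled on day 42 after hatch, in 4 groups of 6 libraries. The group CON received the basal diet at 24 °C, group A a diet with 1% L-citrulline at 24 °C, group B the basal diet at 35 °C, and group C the L-citrulline diet at 35 °C. Both temperatures applied from day 28 at 60% relative humidity. A treatment comprised 6 replicates with 12 chickens in each, and each library is taken here as 1 bird. Females made up 2 of 6 libraries in CON, 4 in A, 2 in B and 4 in C, so sex was unequal between the diets, and the tests below carry the treatment group as a covariate unless stated, while FPKM means and their ratios do not.

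In birds the female carries 1 Z and 1 W chromosome and the male 2 Z chromosomes. The W holds few genes, nearly all of them old partners of Z genes that serve basic cell functions. Birds have no chromosome-wide silencing of the kind that acts on the mammalian X, and males are known to have higher transcript levels from most of the Z. A stretch of the Z around the gene DMRT1, the male hypermethylated region, is known for transcription specific to females. The hypothalamus controls reproduction, feeding, body temperature and stress through peptide neurons, many of which carry receptors for sex steroids.

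The W score, a level on the log2 scale that set the classes and is given only as a description, was 4.50 to 4.71 in females (median 4.62) and 0.081 to 0.178 in males (median 0.117). The last bird inside the female class stood at 4.50 and the next bird at 0.178, a gap of 4.32. W genes held 15832 to 21411 counts per female library and 72 to 126 per male library. The most abundant W transcript was Wpkci-7, the W copy of the nucleotide-binding protein gene HINT1, at 292, 316 and 332 CPM in females and 0, 0.14 and 0.72 CPM in males (lowest, median and highest, the order used throughout). Next came the W copies of the mitochondrial ATP synthase alpha subunit (ENSGALG00000043758), of the ATPase VCP, which extracts proteins for degradation (ENSGALG00000033705), of the RNA-binding protein HNRNPK (HNRNPKL), of the ubiquitin-conjugating enzyme UBE2R2 (ENSGALG00000048542), and of the chromatin reader SPIN1 (SPIN1W). Their median CPM in females was 252, 125, 87.2, 62.8 and 60.8, and no male library exceeded 0.72 CPM for any of the 6.

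Z genes were not used to class the birds. They took 2.39% to 2.54% of the counts of a female library (median 2.47%) and 3.23% to 3.41% of a male library (median 3.34%), without overlap. No library had a Z share that went against its W class. Total counts were 12635239 to 14525246 in females and 12776660 to 15001037 in males, so depth did not separate the sexes. The tissue label was checked against markers: hypothalamic region markers were present in both sexes, with summed levels of 168 to 343 CPM in females and 193 to 314 in males, and the arginine vasotocin precursor AVP reached 6086 and 6724 CPM. Anterior pituitary markers were near 0, with at most 12.2 CPM summed over 6 genes.

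**Figure D1:**
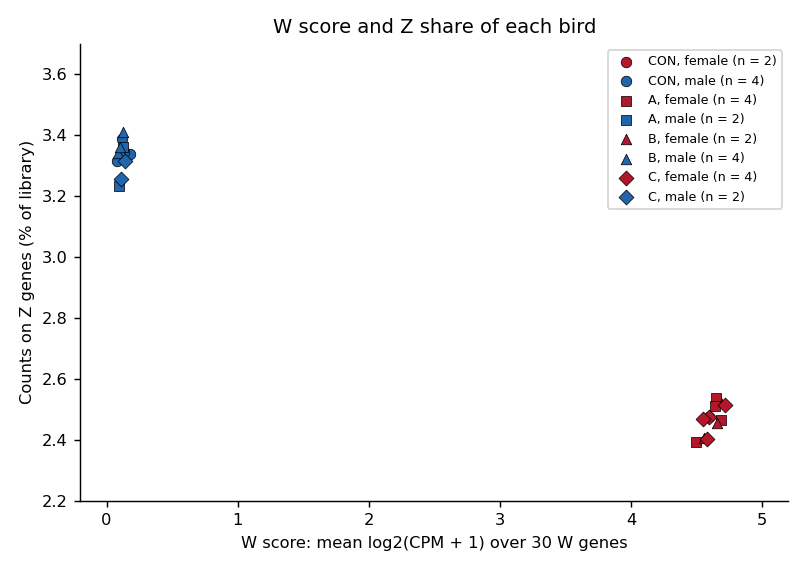
Each point is 1 library, with the W score that classed the bird on the x axis (mean log2(CPM + 1) over 30 W genes) and the share of its counts on Z genes on the y axis (%). Colour is the sex class and shape the treatment group; the 12 females lie at W scores of 4.50 to 4.71 with Z shares of 2.39% to 2.54%, and the 12 males at 0.081 to 0.178 with 3.23% to 3.41%.

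Across the 13742 genes tested with edgeR's quasi-likelihood test, 508 (3.7%) differed between the sexes at a Benjamini-Hochberg adjusted p under 0.05, and 411 of these lay on the Z and 30 on the W. The W calls follow from how the birds were chosen and are read as no result. Of 12988 autosomal genes, 50 were higher in females (0.385%) and 16 lower (0.123%). That count leans on the sex chromosomes, because the many Z and W genes with very small p-values loosen the adjusted threshold for all others. In simulated counts that kept the Z and W differences, 31 of 12788 unchanged autosomal genes were called under the same adjustment. A sizeable part of the autosomal calls may therefore be false. When the p-values of the 13082 genes on neither Z nor W were adjusted among themselves, 15 genes passed (0.115%), and all 15 were autosomal and higher in females. These 15 genes also passed with DESeq2, with limma voom, without the treatment covariate and with oligodendrocyte and region marker levels as covariates (there adjusted over all genes tested). Adjusted among the genes on neither Z nor W, 7 of the 15 passed in all 24 fits that left out 1 bird, and the count of such genes fell to 8 without female B 2. The median log2 fold change over autosomal genes was 0.0089, with quartiles of -0.055 and 0.069, and the median over the Z was -0.50.

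**Figure D2:**
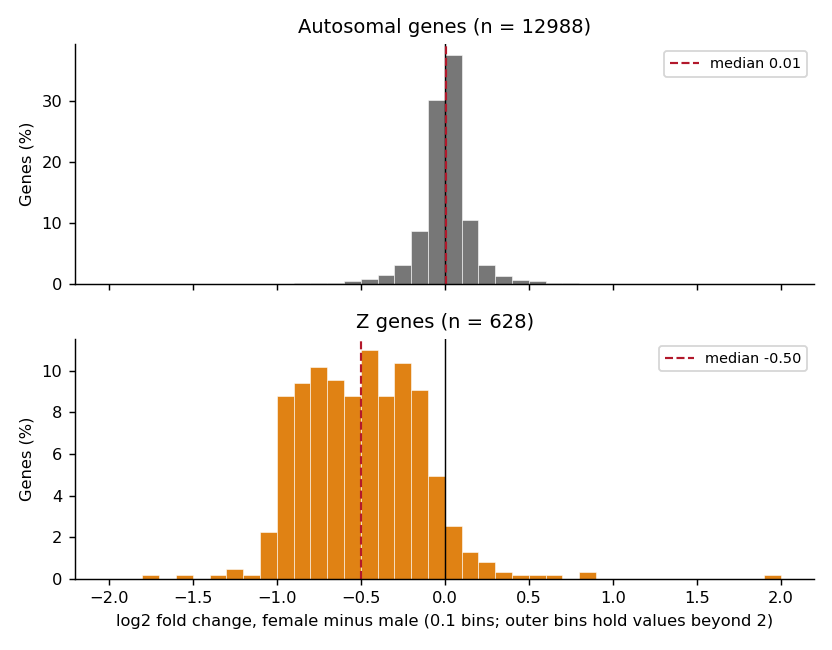
Share of genes (%, y axis) in bins of the log2 fold change between females and males (x axis, female minus male) for 12988 autosomal genes above and 628 Z genes below. Dashed lines mark the medians, 0.0089 for autosomes (shown rounded) and -0.50 for the Z; most autosomal genes stay within 0.2 of 0, and Z genes spread from near -1 to 0.

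The 15 autosomal genes lay on 12 chromosomes and differed by 1.13-fold to 1.72-fold (log2 0.18 to 0.78, median 0.34). In 3 of them every female exceeded every male, and no other of the 12988 autosomal genes did (0.0231%). No autosomal gene had every male above every female (0.0%). All 15 had a positive sign within each of the 4 treatment groups, which is no independent support, since the same birds chose them. Since the tissue was whole hypothalamus, more cells of a type and more RNA per cell cannot be told apart for any of them. They are described here by known role, without a test of any role as a group.

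The gene with the smallest p-value was ENSGALG00000014589 (GRCg6a, chromosome 28, positions 2309232 to 2317220, plus strand), which the files describe as AN1-type zinc finger protein 5-like. Proteins of this family bind ubiquitin, and in mammals ZFAND5 promotes degradation by the proteasome. CPM was 90.1, 101 and 112 in females and 52.7, 58 and 63.5 in males. The sexes did not overlap, and the lowest female stood above the highest male. The log2 fold change was 0.78 ± 0.033 (SE; adjusted p = 6.65e-15, edgeR), and within groups it was 0.79 in CON, 0.77 in A, 0.85 in B and 0.72 in C. The family member ZFAND5 lies on the Z and, chosen after its values were seen, moved the other way: 63.4, 69.9 and 80.5 CPM in females and 117, 129 and 141 CPM in males (log2 fold change -0.89 ± 0.042, adjusted p = 4.82e-14, edgeR). In FPKM, which is per gene length, the Z gene averaged 26.1 ± 2.12 in females and 47.9 ± 2.98 in males and the autosomal gene 53.7 ± 2.79 in females and 30.9 ± 1.32 in males (SD, n = 12 each). Their sum was 79.8 ± 3.79 in females and 78.8 ± 3.09 in males, a female to male ratio of 1.01, with ranges that overlapped. Near-identical genes can exchange reads in counting, and whether these do was not tested.

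UBQLN4, a ubiquilin that carries ubiquitinated proteins to the proteasome (chromosome 25, positions 1539153 to 1550485, minus strand), was the second gene. CPM was 149.8, 165 and 173 in females and 122, 132 and 139.9 in males. Again no male reached the lowest female, and the log2 fold change was 0.32 ± 0.029 (adjusted p = 1.01e-08, edgeR), with 0.27 in CON, 0.34 in A, 0.32 in B and 0.33 in C. Its family member UBQLN1 is a Z gene, also chosen after its values were seen, and had 100.4, 107 and 115 CPM in females and 136, 145 and 162 CPM in males (log2 fold change -0.43 ± 0.036, adjusted p = 1.97e-09, edgeR). Per length, UBQLN4 and UBQLN1 together gave 92.7 ± 2.67 in females and 94.2 ± 4.51 in males (FPKM, SD, n = 12 each), a ratio of 0.984. Of 58 called autosomal genes with a symbol, 11 (19%) share a symbol stem with some Z gene, and so do 19.9% of the 10792 such autosomal genes tested. A shared stem is only a shared beginning of the symbol and need not mean a gene family, and genes without a symbol, such as the ZFAND5-like gene, are not counted. Of 628 Z genes tested 591 were below 0, so a Z relative mostly lies opposite to an autosomal gene higher in females. GLMN, whose protein glomulin binds and inhibits cullin-RING ubiquitin ligases, was at 20.3, 24 and 27.6 CPM in females and 16.1, 19.4 and 24 CPM in males. For GLMN the log2 fold change was 0.31 ± 0.062 (adjusted p = 0.00172, edgeR), and the sexes overlapped, with 6 females above every male.

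Several of the 15 genes act in mitochondria or metabolism. SPG7 encodes paraplegin, a subunit of a protease of the inner mitochondrial membrane, and its CPM was 203, 218 and 239 in females and 172, 189.5 and 198 in males. For SPG7 the log2 fold change was 0.22 ± 0.034 (adjusted p = 6.13e-05, edgeR). The SPG7 difference was small, but no male overlapped a female. COQ9, needed to make coenzyme Q, was at 29.4, 34.7 and 40.9 CPM in females and 23.6, 26.8 and 31.3 CPM in males. For COQ9 the log2 fold change was 0.34 ± 0.063 (adjusted p = 0.000747, edgeR), with 10 of 12 females above every male. ENSGALG00000026776, described as TIGAR, a phosphatase that lowers glycolytic flux, was at 41.3, 48.7 and 59.5 CPM in females and 29.6, 37 and 43 CPM in males (log2 fold change 0.47 ± 0.065, adjusted p = 1.34e-05, edgeR), and 11 females lay above every male. NTPCR, a nucleoside triphosphatase, was at 38, 44.1 and 54.1 CPM in females and 28, 32.9 and 44.3 CPM in males. For NTPCR the log2 fold change was 0.43 ± 0.059 (adjusted p = 1.14e-05, edgeR), with more overlap, as 6 females lay above every male. DHRS11, a short-chain dehydrogenase that in human acts on steroids and other carbonyl compounds, was at 21.4, 26.2 and 32.4 CPM in females and 15, 19.2 and 25.3 CPM in males. For DHRS11 the log2 fold change was 0.46 ± 0.087 (adjusted p = 0.000877, edgeR), and 6 females lay above every male.

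Others act on chromatin, nucleic acids or membranes. SMC6 is a subunit of the complex of SMC5 and SMC6 that works in DNA repair. It ranged from 28.9 to 35 CPM in females (median 32.3) and from 23.2 to 29.2 in males (median 25.3). For SMC6 the log2 fold change was 0.31 ± 0.049 (adjusted p = 8.7e-05, edgeR). Its partner SMC5 is a Z gene and was lower in females, 15.7, 17.8 and 20.5 CPM in females and 28.1, 30.6 and 34.7 CPM in males (log2 fold change -0.79 ± 0.052, adjusted p = 3.13e-11, edgeR), so the subunits of this complex differed in opposite directions; SMC5 was chosen after its values were seen. LEO1, a subunit of the PAF1 complex that travels with RNA polymerase II, ranged from 56.3 to 72.6 CPM in females (median 66.4) and from 48.4 to 61.8 in males (median 52.5). For LEO1 the log2 fold change was 0.25 ± 0.048 (adjusted p = 0.000877, edgeR). GTSF1, known in mouse for the piRNA pathway that silences transposons in germ cells, ranged from 72.1 to 136 CPM in females (median 115) and from 66.6 to 111 in males (median 85.4). For GTSF1 the log2 fold change was 0.43 ± 0.08 (adjusted p = 0.000814, edgeR). METTL9, a histidine methyltransferase, ranged from 16.8 to 23.4 CPM in females (median 19.2) and from 12.1 to 17.1 in males (median 14.4). For METTL9 the log2 fold change was 0.45 ± 0.069 (adjusted p = 5.44e-05, edgeR). Overlap was limited in SMC6 and METTL9, where 10 and 11 females lay above every male, and wider in LEO1 and GTSF1, with 8 and 8.

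The remaining 3 are TMEM230, a protein of trafficking vesicles, PQLC1, a membrane protein with PQ loop repeats, and ENSGALG00000047516, described as coiled-coil domain containing 107. Their log2 fold changes were 0.18 ± 0.035, 0.33 ± 0.059 and 0.37 ± 0.069 (edgeR adjusted p = 0.00133, 0.000497 and 0.00077). TMEM230 ranged from 96.4 to 115 CPM in females (median 109) and from 88.5 to 102 in males (median 95.6), PQLC1 from 33.6 to 40.9 CPM in females (median 36.6) and from 23 to 36.8 in males (median 28.7), and ENSGALG00000047516 from 50.6 to 77.1 CPM in females (median 53.8) and from 35.9 to 53.1 in males (median 45). All 3 overlapped, with 10, 6 and 7 females above every male.

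**Figure D3:**
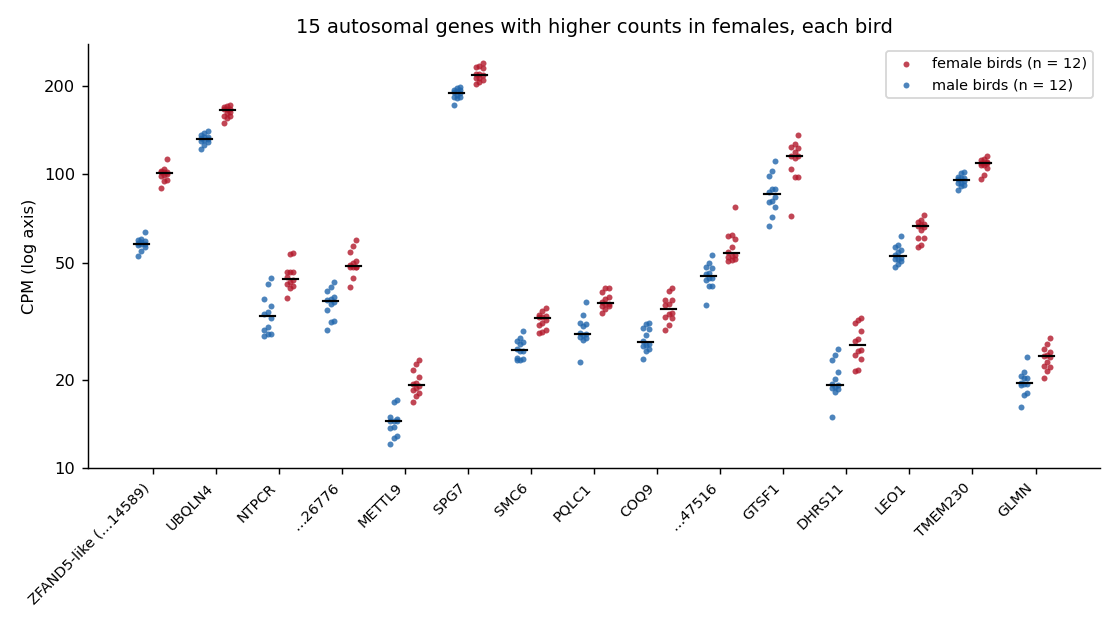
CPM of each bird (log axis) for the 15 autosomal genes higher in females, with blue points for the 12 males and red points for the 12 females of each gene and a black line at the median. Names beginning with dots are the final digits of gene identifiers. The ZFAND5-like gene, UBQLN4 and SPG7 have no overlap; in the others the sexes overlap in part.

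The other 35 autosomal genes higher in females passed only when adjusted over all genes, with log2 fold changes of 0.11 to 2.71. Among those chosen after their values were seen, GREB1, a gene known in human for its strong induction by estrogen, was at 14.1, 22.8 and 33.9 CPM in females and 7.36, 15.9 and 21.6 CPM in males (log2 fold change 0.71 ± 0.18, adjusted p = 0.0157, edgeR; adjusted p = 0.22 without Z and W genes). GREB1 overlapped between the sexes, with 7 females above every male, and its log2 fold change was 0.76 in CON, 1.10 in A, 0.024 in B and 0.95 in C. ENSGALG00000004572, described as C-type natriuretic peptide 3, was at 1.92, 8.7 and 28.7 CPM in females and 0.966, 6 and 18.7 CPM in males (log2 fold change 1.60 ± 0.42, adjusted p = 0.0261, edgeR; 0.287 without Z and W genes). COLQ, which anchors acetylcholinesterase at synapses, was at 2.43, 3.59 and 4.32 CPM in females and 1.38, 2.47 and 3.57 CPM in males. For COLQ the log2 fold change was 0.52 ± 0.13 (adjusted p = 0.0228, edgeR). POU4F1, a homeobox factor of medial habenula and sensory neurons, was at 0, 0.818 and 5.07 CPM in females and 0, 0.146 and 1.95 CPM in males (log2 fold change 2.71 ± 0.76, adjusted p = 0.0458, edgeR). POU4F1 is low and lies at 0 in some birds of both sexes, so its fold change depends on few counts. With 1 bird left out, GREB1 passed in 22 of 24 fits, COLQ in 20, ENSGALG00000004572 in 18 and POU4F1 in 7; the highest adjusted p were 0.0548 without CON 1, 0.0685 without C 4, 0.0673 without CON 5 and 0.159 without CON 5 (edgeR).

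Among the 16 autosomal genes lower in females none passed without Z and W genes, where the smallest adjusted p was 0.0504. That gene was TGM2, the protein-crosslinking enzyme transglutaminase 2, at 10.2, 13.8 and 17.6 CPM in females and 12, 16.1 and 36.2 CPM in males. For TGM2 the log2 fold change was -0.62 ± 0.13 (adjusted p = 0.00225, edgeR). Only the upper tail of TGM2 stood apart, with 4 males above every female, and its log2 fold change was -0.44 in CON, -1.30 in A, -0.21 in B and -0.46 in C. MFAP2, an extracellular microfibril protein, was at 2.29, 3.22 and 4.3 CPM in females and 2.54, 4.42 and 8.21 CPM in males. For MFAP2 the log2 fold change was -0.60 ± 0.15 (adjusted p = 0.0144, edgeR). S1PR2, a receptor for sphingosine 1-phosphate, was at 2.18, 3.31 and 4.39 CPM in females and 2.48, 4.37 and 5.33 CPM in males (log2 fold change -0.44 ± 0.11, adjusted p = 0.0123, edgeR). CYP26B1, which degrades retinoic acid, was at 0.896, 2.39 and 4.62 CPM in females and 2.25, 3.69 and 5.79 CPM in males. For CYP26B1 the log2 fold change was -0.75 ± 0.21 (adjusted p = 0.0386, edgeR). ENSGALG00000011812, described as the estrogen sulfotransferase SULT1E1, was at 5.58, 9.43 and 16.3 CPM in females and 7.91, 11.5 and 18.9 CPM in males (log2 fold change -0.48 ± 0.13, adjusted p = 0.0291, edgeR). All 4 overlapped in part, with 8, 5, 3 and 2 males above every female. The other 10 named ones, FAM206A, SYDE2, ELF2, SYNE2, HIP1, ATP1B4, LSM5, C1QTNF6 and the identifiers ENSGALG00000054145 and ENSGALG00000045199, had log2 fold changes of -0.66 to -0.14. With any 1 bird left out, TGM2, FAM206A and S1PR2 kept the call, while MFAP2 lost it without male A 5 (adjusted p = 0.0778, edgeR), CYP26B1 without male A 6 (0.128) and the SULT1E1 gene without male A 5 (0.109), each the highest of 24 fits. Of the 16 genes, 13 lost the call in at least 1 such fit, and 3 were called without group A, 3 without the treatment covariate and 6 with a replicate block. TGM2 had an edgeR adjusted p of 0.115 without group A and 0.173 without the covariate, and S1PR2 0.0603 with the replicate block and 0.414 without the covariate. On an unplaced scaffold, the proteasome subunit PSMB6 was at 22.5, 24.9 and 27.2 CPM in females and 23.9, 28.3 and 50.4 CPM in males (log2 fold change -0.49 ± 0.11, adjusted p = 0.00771, edgeR; 0.127 without Z and W genes).

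Markers of choroid plexus and meninges are given beside the genes lower in females. The choroid plexus transport protein TTR, chosen after its values were seen, exceeded 1000 CPM in 3 birds, males CON 6 and A 5 and female A 1. Of 9 autosomal choroid plexus markers tested 8 were below 0, with a median log2 fold change of -0.50, and of 14 markers of meninges and fibroblasts 11 were below 0, with a median of -0.39, though none passed with edgeR (2 and 1 at an unadjusted p under 0.05) and DESeq2 called 1, MSX1 of the choroid plexus list. Summed levels of the choroid plexus list were 194 to 1654 CPM in females and 170.1 to 2394 in males, and those of the meningeal list 494 to 1738 and 557 to 2286; no marker of either list was at 0 in all birds. In the 21 birds other than those 3 the medians of both lists were 0.029 and -0.00020. The 3 birds were picked by a choroid plexus transcript, so a smaller choroid plexus difference without them follows from the choice. In these 21 birds 3 of the 16 genes lower in females (TGM2, CYP26B1 and SYDE2) and 27 of the 50 genes higher in females were still called, all 15 genes described above among them. Fewer birds also give less power, and why calls were lost was not tested.

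Receptors of sex and adrenal steroids with their cofactors and chaperones formed a list of 11 tested genes, all autosomal, and none passed with edgeR, DESeq2 or limma voom (1 had an unadjusted edgeR p under 0.05). The estrogen receptor ESR1 was at 0.649, 1.91 and 4.6 CPM in females and 0.709, 2.01 and 4.17 CPM in males (log2 fold change 0.47 ± 0.29, edgeR adjusted p = 0.63), and ESR2 at 3, 9.88 and 23 CPM in females and 5.17, 8.66 and 18.3 CPM in males (log2 fold change 0.22 ± 0.26, adjusted p = 0.864). The progesterone receptor PGR was at 0.973, 4.27 and 10.5 CPM in females and 0.496, 3.75 and 10.4 CPM in males (log2 fold change 0.50 ± 0.38, adjusted p = 0.745), and CYP19A1, the aromatase that makes estradiol, at 7.75, 20.5 and 31.6 CPM in females and 5.66, 23.7 and 31.1 CPM in males (log2 fold change 0.046 ± 0.23, adjusted p = 0.973). All of these overlapped almost completely. The standard errors of ESR1, ESR2, PGR and CYP19A1, 0.23 to 0.38, were well above the autosomal median of 0.081. Values as large as the 0.47 of ESR1 and the 0.50 of PGR did not pass, so sizeable differences in these 4 genes are not excluded. Of 18 tested genes of steroid synthesis and turnover, 16 were autosomal and none of those passed with any of these tools (1 at an unadjusted edgeR p under 0.05); HSD17B4, a Z gene whose enzyme oxidises estradiol and shortens fatty acids in peroxisomes, was lower in females (79.1, 86.4 and 93.1 CPM in females and 144, 156 and 169.8 CPM in males; log2 fold change -0.87 ± 0.037, adjusted p = 6.65e-15, edgeR).

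The reproductive peptide list had 18 autosomal members tested, none of which passed with edgeR (1 at an unadjusted p under 0.05) and 1, NPVF, with DESeq2, with a median log2 fold change of 0.14 and 16 of 18 above 0, against 54.3% of all autosomal genes above 0. Its largest value belonged to NPVF, the precursor of gonadotropin-inhibitory hormone, at 10.1, 70 and 198 CPM in females and 2.59, 23.7 and 132 CPM in males (log2 fold change 1.75 ± 0.65, edgeR adjusted p = 0.229; DESeq2 adjusted p = 0.0147). The ranges overlapped widely, and the difference was 0.24 in CON, 3.77 in A, 0.54 in B and 3.12 in C. The test of the difference between diets gave 3.06 ± 1.06 (adjusted p = 0.922, edgeR). VIP, which releases prolactin in birds, was at 21, 39.6 and 57 CPM in females and 4.54, 34.2 and 60.1 CPM in males (log2 fold change 0.46 ± 0.31, edgeR adjusted p = 0.685), and AVP, the precursor of arginine vasotocin, at 616, 2918 and 6086 CPM in females and 917, 2107 and 6724 CPM in males (log2 fold change 0.055 ± 0.35, adjusted p = 0.982). The standard errors of VIP and AVP were also well above the autosomal median, so sizeable differences in them are not excluded. Over all 22 gene lists, 317 autosomal members were tested and edgeR called none, where the background is 0.385% higher and 0.123% lower. An unadjusted edgeR p under 0.05 was found for 23 of these 317, and for 919 of all 12988 autosomal genes. DESeq2 called 3 of the 317 (NPVF, HMX3 and MSX1) and 116 of the 12988, and limma voom called 0 and 71. Of 61 autosomal cytosolic ribosomal protein genes 58 were below 0, with a median of -0.059 (-0.068 to -0.046 over the other scalings, DESeq2, limma voom and the fit without the 3 birds rich in TTR), and of 17 interferon-stimulated genes 16 were below 0, with a median of -0.18 (-0.21 to -0.17). Of these genes 4 of 61 and 0 of 17 had an unadjusted edgeR p under 0.05. Members of a list can move together in a few birds, so the signs are no test. Summed levels of the interferon list were 303, 333 and 503 CPM in females and 298, 343 and 1019 in males.

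On the Z, 409 of 628 tested genes were lower in females (65.1%) and 2 higher (0.318%), and in 237 (37.7%) every male exceeded every female. The median log2 fold change of -0.50 corresponds to 0.707 of the male level, which lies between equal output and the ratio of 1 gene copy to 2. Values were spread rather than grouped at a single ratio: quartiles were -0.78 and -0.25, 112 genes lay within 0.2 of 0, and 21 lay below -1. The median was -0.52 among the 209 Z genes with the lowest mean CPM, -0.57 among the next 209 and -0.44 among the 210 highest. Within groups the Z median was -0.47 in CON, -0.54 in A, -0.54 in B and -0.51 in C.

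The smallest p-values on the Z belonged to DCTN3, a subunit of the dynactin motor complex, at 67.4, 72.1 and 75.7 CPM in females and 127, 146 and 152 CPM in males (log2 fold change -1.0 ± 0.033, adjusted p = 3.35e-17, edgeR), and to VCP, at 201, 212 and 221 CPM in females and 341, 383 and 397 CPM in males (log2 fold change -0.83 ± 0.031, adjusted p = 6.11e-16, edgeR). Next in order were SPIN1Z, SMAD2Z (a signal transducer of TGF-beta and activin receptors), MRPS30 (a mitochondrial ribosomal protein), CCNH (cyclin H), NAA35 (a subunit of an N-terminal acetyltransferase) and chPKCI (the Z copy of HINT1), with log2 fold changes of -1.13 to -0.87. In these 8 genes the lowest male exceeded the highest female. Some hypothalamic and endocrine genes of the lists were among those called. Of their Z members, 2 of 2 in the stress, growth and thyroid list, 1 of 1 in steroid synthesis and turnover and 1 of 3 region markers were called lower. None was called of 2 in the feeding and arousal list, 1 in the reproductive list and 2 in the gonadal sex determination list. Over all Z genes the share called lower was 65.1%. CRHBP, the binding protein of corticotropin-releasing hormone, was at 8.27, 15.3 and 49.9 CPM in females and 15.8, 36.1 and 95.8 CPM in males. For CRHBP the log2 fold change was -1.09 ± 0.25 (adjusted p = 0.00837, edgeR). The growth hormone receptor GHR was at 13.1, 17.1 and 23.4 CPM in females and 21.5, 25.8 and 36.4 CPM in males (log2 fold change -0.59 ± 0.10, adjusted p = 0.000329, edgeR). RAX, a homeobox factor of tanycytes, was at 0.896, 1.54 and 2.07 CPM in females and 1.37, 2.15 and 3.25 CPM in males. For RAX the log2 fold change was -0.69 ± 0.16 (adjusted p = 0.00964, edgeR). CRHBP overlapped between the sexes, with 2 males above every female, and GHR and RAX had 8 and 7. CRHBP passed in 23 of 24 fits with 1 bird left out and had an adjusted p of 0.0519 without C 4 (edgeR).

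Ribosomal protein genes of the Z differed among themselves. RPS6, RPS23 and RPL17 were lower in females by log2 fold changes of -0.96 ± 0.044, -1.0 ± 0.059 and -0.94 ± 0.046, and RPL37 by -0.43 ± 0.037 (edgeR adjusted p = 2.8e-14, 2.7e-12, 7.09e-14 and 3.7e-09). For RPS6 CPM was 207, 224 and 258 in females and 389, 431 and 491 in males, and for RPL37 77.3, 83.5 and 93.5 and 108, 113 and 120.0. None of the 4 overlapped between the sexes. Of the cell type lists, Z members lower in females included TEK, the angiopoietin receptor of endothelium (log2 fold change -0.32 ± 0.083, adjusted p = 0.0243) and DNAI1, a dynein of motile cilia (log2 fold change -0.89 ± 0.10, adjusted p = 6.73e-07), both by edgeR. The autosomal members of these lists did not share this as a set. The 13 autosomal markers of endothelium and pericytes had a median of -0.0044, with 6 above 0 and 7 below. The 11 of ciliated ependyma had a median of -0.021, with 4 above 0 and 7 below. None of them was called by edgeR. An unadjusted edgeR p under 0.05 was found for 4 of the 13 and 0 of the 11, and for 919 of all 12988 autosomal genes.

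The 2 Z genes higher in females lie 771 kb apart. RLN3 (chromosome Z, positions 27624861 to 27627531, minus strand) is described as relaxin 3. In mammals the peptide of that name is made by brainstem neurons that project to the hypothalamus and other forebrain areas. Whether this Z gene is the counterpart of the mammalian gene was not tested. CPM was 30.2, 50 and 73 in females and 7.59, 13.1 and 17.7 in males. Every female exceeded every male by a wide margin, and the log2 fold change was 1.97 ± 0.15 (3.91-fold; adjusted p = 5.22e-10, edgeR), with 2.03 in CON, 2.14 in A, 1.85 in B and 1.86 in C. GLIS3, a zinc finger transcription factor of pancreas, kidney and thyroid, was at 2.36, 2.94 and 4.93 CPM in females and 1.1, 1.65 and 2.9 CPM in males (log2 fold change 0.82 ± 0.15, adjusted p = 0.000473, edgeR), and the sexes overlapped, with 7 females above every male. DMRT1 is a Z gene that directs testis development and was too low to be tested, with at most 1.24 CPM in females and 0.86 in males. DMRT2, a relative of DMRT1 and chosen after its values were seen, was at 0.442, 3.11 and 5.69 CPM in females and 0.647, 1.39 and 3.93 CPM in males (log2 fold change 0.87 ± 0.36, adjusted p = 0.319, edgeR). The starts of DMRT1 and DMRT2 lie at -1675 and -1582 kb from that of RLN3, outside the window of 1 Mb described next.

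Values of the genes around RLN3 are given as a description. Of 17 genes tested within 1 Mb of it, 4 (23.5%) were lower in females and 2 higher. Their median log2 fold change was -0.057, or -0.13 without RLN3 and GLIS3. Of the other 611 Z genes 405 (66.3%) were lower, with a median of -0.52. The window was drawn after RLN3 was seen, so no test of it is given. Within it the glutamate transporter SLC1A1 and the cytokine signalling kinase JAK2 were close to equal, with log2 fold changes of 0.10 ± 0.068 and 0.13 ± 0.079 (edgeR adjusted p = 0.668 and 0.631), while GLDC, which degrades glycine, was at -0.35 ± 0.068 (adjusted p = 0.00112, edgeR). SLC1A1, JAK2 and GLDC were chosen after their values were seen.

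**Figure D4:**
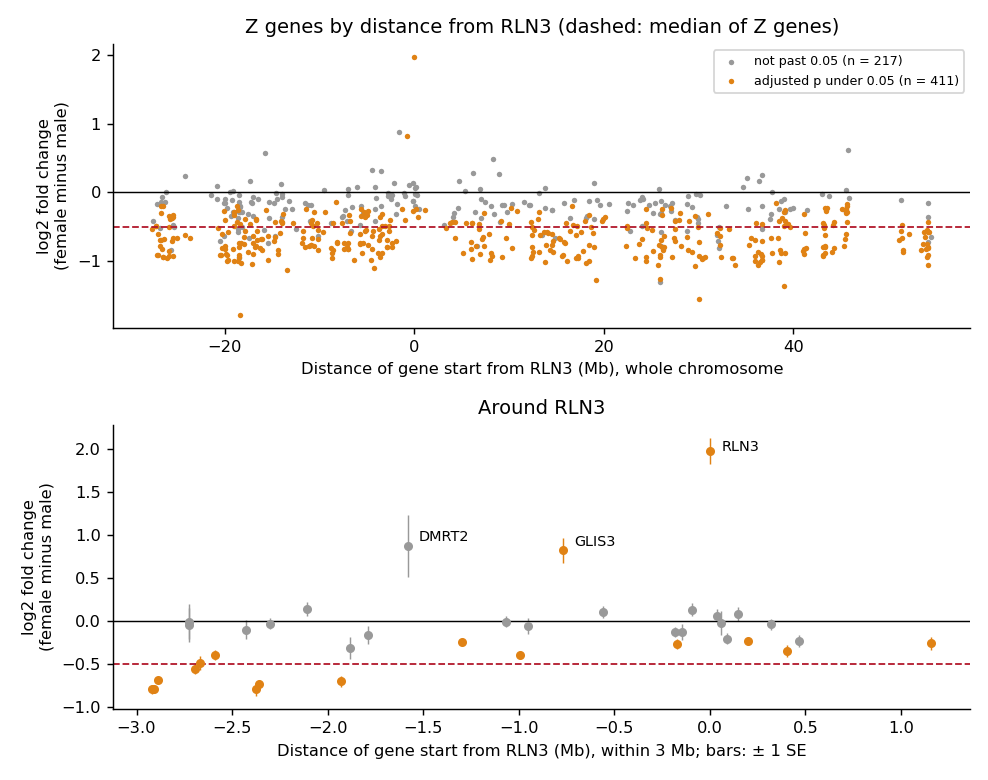
log2 fold change (female minus male, y axis) of 628 Z genes against the distance of their start from RLN3 in Mb (x axis), over the chromosome above and within 3 Mb below, where bars are 1 SE. Orange marks adjusted p under 0.05 and the dashed line the Z median of -0.50; RLN3 (1.97) and GLIS3 (0.82) stand above 0, and the 17 genes within 1 Mb of RLN3, these included, have a median of -0.057.

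The W copies in females were set against their Z partners in 19 pairs matched by description, in FPKM so that genes of different length could be added. RASA1 and TXNL1 have 2 W genes each, which were added to give the W level. W levels are a description, since they chose the birds. All 19 Z partners were lower in females by the test, and their female to male ratios were 0.519 to 0.679 (median 0.573). When the W and Z copies were summed, the female to male ratio was 0.670 to 3.23 (median 1.02). In 14 pairs the sum lay between 0.8 and 1.2 of the male level, in 3 below and in 2 above. Copies of high identity can share reads under the authors' counting, so the split between W and Z is uncertain. In males, classed by their low W levels, the mean W level of a pair was at most 0.083 FPKM (HINT1). Whether W reads of females were counted on the Z copies was not tested. Whether the sum is affected too was not tested.

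HINT1 stood furthest above the male level, with 142 ± 6.7 FPKM from W and 27.2 ± 1.67 from Z in females, against 52.3 ± 2.97 from Z in males (SD, n = 12 each), a sum 3.23 times the male level. SMAD2 followed, with 16 ± 0.99 FPKM from W and 10.9 ± 0.691 from Z in females, against 21.1 ± 0.836 from Z in males. At the other end was the ATP synthase alpha subunit ATP5F1A, with 57.1 ± 11.8 FPKM from W and 206 ± 13.9 from Z in females, against 393 ± 30.6 from Z in males, where the sum reached 0.670 of the male level. RPL17 and SPIN1 had sums of 0.729 and 0.734. CHD1, a chromatin remodeller long used to sex birds, had 3.99 ± 0.347 FPKM from W and 4.24 ± 0.253 from Z in females, against 6.98 ± 0.444 from Z in males, and VCP had 40.5 ± 2.35 FPKM from W and 72.7 ± 2.45 from Z in females, against 129 ± 6.19 from Z in males. The W level exceeded the Z level in 4 pairs. In HINT1 and SMAD2 it came from 1 annotated W gene (5.21 and 1.46 times the Z copy). In RASA1 and TXNL1 it was 2 annotated W genes together (1.27 and 1.18 times the Z copy). How many copies of an annotated gene the W holds was not tested, so these ratios need not compare 1 copy with 1 copy.

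**Figure D5:**
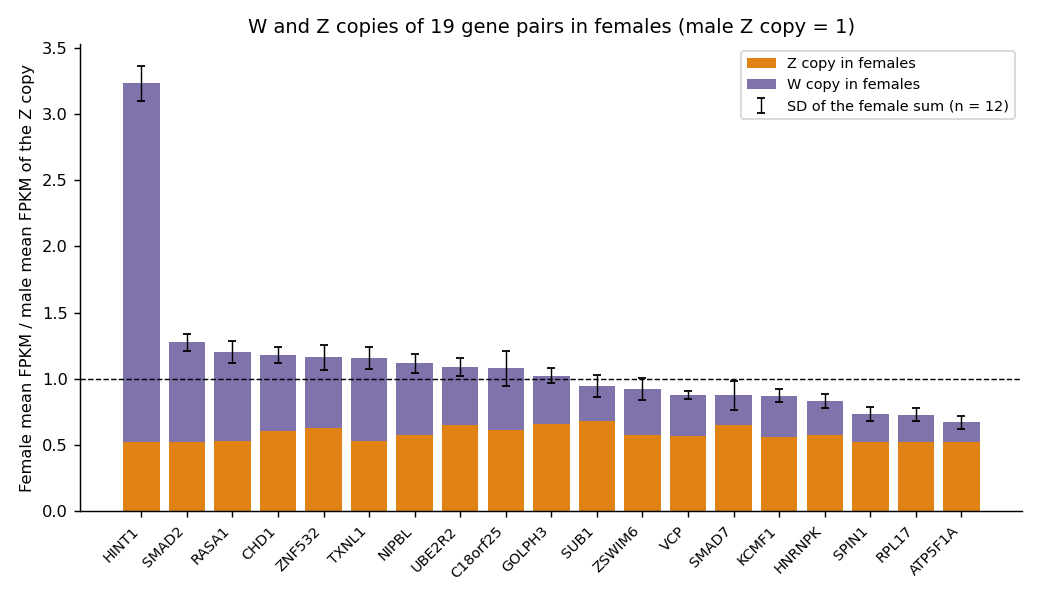
Female mean FPKM of the Z copy (orange) and W copy (purple) of 19 gene pairs, stacked, divided by the male mean FPKM of the Z copy (y axis, ratio, with a dashed line at 1). For RASA1 and TXNL1 the purple part is 2 W genes together. Error bars are the SD of the female sum over 12 birds on the same scale; sums run from 0.670 for ATP5F1A to 3.23 for HINT1, and 14 of 19 lie between 0.8 and 1.2.

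Whether the sex difference depended on temperature or diet was tested as an interaction in a fit of 8 means, with 2 to 4 birds of each sex in a group. By edgeR's quasi-likelihood test 0 of 13742 genes passed for temperature (0.0%) and 0 for diet (0.0%), where 410 and 720 had an unadjusted p under 0.05, and DESeq2 called 1 autosomal gene for each. Among the 15 autosomal genes the smallest adjusted p was 1.00 for temperature and 0.922 for diet. The smallest p for diet belonged to TH, the rate-limiting enzyme of dopamine synthesis, at 2.43, 6.01 and 13.2 CPM in females and 1.99, 4.4 and 11.1 CPM in males, where the sex difference on L-citrulline minus that on the basal diet was 2.26 ± 0.44 on the log2 scale (edgeR adjusted p = 0.711). Within groups the TH difference was -0.12 in CON, 2.27 in A, -1.11 in B and 1.02 in C. SLC18A2, the vesicular monoamine transporter, had the fifth smallest p, with 1.67 ± 0.41 (adjusted p = 0.886, edgeR), after CNTNAP5, NME7 and ENSGALG00000028466, described as interleukin 34, at 0.66, 0.48 and -0.52. For temperature the 5 smallest were ENSGALG00000040101, MYLK (myosin light chain kinase), TMEM248, ENSGALG00000050728 and DNAJC12 (a co-chaperone of the aromatic amino acid hydroxylases), at -4.83, 0.94, -0.29, 1.49 and -0.43 (edgeR adjusted p = 0.738 for the first). Tested within each group, 6 of 12988 autosomal genes were called in CON, 94 in A, 10 in B and 14 in C. Of these, 4, 20, 4 and 2 were among the 66 called over all birds. Group A had 2 males, and its male A 5 and female A 1 were among the birds above 1000 CPM of TTR. Whether this bears on the 94 was not tested.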

How the data were processed

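RNA of 24 hypothalamus samples was sequenced on an Illumina protocol, per the labels' protocols. The authors deposited 1 expression table with a read count and an FPKM value per gene and library, per the file headers; FPKM here is the authors' count scaled by gene length and library total. HISAT2, TopHat, HTSeq, DESeq and the build GRCg6a appear in the submitters' processing notes without versions. Strand use in counting is not given in the sources used here. Positions are those of the table.

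Sex was read from W genes, as the report describes. In R 4.3.3 with edgeR 4.0.16, filterByExpr by treatment group kept 13742 of 16779 genes. TMM factors were 0.967 to 1.03, and treatment group plus sex was fitted to all 24 libraries (19 residual degrees of freedom, biological coefficient of variation 0.162, median autosomal standard error 0.081 on the log2 scale). P-values were adjusted over all 13742 genes by the Benjamini-Hochberg method, with a threshold of 0.05. Interactions were tested in 8 means of group and sex (16 residual degrees of freedom). Values after ± are standard errors for log2 fold changes and SD for FPKM. The standard error was derived from the edgeR test, as the absolute log2 fold change divided by the square root of its F statistic, and is approximate. Libraries held 12635239 to 15001037 counts. No 2 libraries of a group were copies (chi-square per degree of freedom 7.19 to 88.3 over 60 pairs). CPM values shown use TMM-scaled library sizes, except in the W score and for DMRT1. Scripts were tested on simulated data that kept the Z and W differences. There 31 of 12788 unchanged autosomal genes were called, with p-values adjusted over all genes. Of 50 genes changed 1.2-fold 19 were recovered, of 50 changed 1.35-fold 38, of 50 changed 1.5-fold 46 and of 50 changed 2-fold 47. Alternatives used DESeq2 1.42.0, limma 3.58.1 voom, other scalings, filters and covariates, and left out birds or groups. Adjusting without Z and W genes and leaving out the birds above 1000 CPM of TTR were added after seeing the data.

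Named genes are the 15 called autosomal genes with the smallest p in each direction, 8 Z genes in each direction where there were that many, the 6 most abundant W genes and the W and Z pairs, up to 5 called genes of unplaced scaffolds (1 was called), the 5 smallest p of each interaction, called list members, and a fixed set of sex steroid, reproductive and sex-chromosome genes; others are marked where named. GNRH1, PRL and OXT were not analysed here, and some named genes are not reported here. The sex classes, genes and 22 lists were chosen with earlier results of these data known.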

Additional observations from a re-analysis of the deposited data

Results flagged for a closer look

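Within each treatment group of 6 birds of both sexes, the highest and lowest bird of each named gene were checked with Dixon's test at the 95% level. Of 412 checks 23 stood out, where chance gives about 1 in 20 if all 6 birds share 1 distribution. Many of these genes were chosen for a sex difference, so that rate need not hold here. A bird that stood out can in part reflect its sex. Each value below is that bird's CPM beside the range of the other 5 birds of its group. No difference in the sex effect between temperatures or diets passed its edgeR test.

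Among the autosomal genes higher in females, male A 6 was low for PQLC1 (30.9 CPM against 35.5 to 38.2) and female B 2 high for LEO1 (67.8 CPM against 50.6 to 56.3). Among those lower in females, male C 6 was high for TGM2 (29.3 CPM against 15.3 to 17.6) and SYDE2 (38.2 CPM against 27.6 to 29.8), male A 5 for MFAP2 (8.21 CPM against 3 to 4.43), and male B 1 for ENSGALG00000054145 (7.77 CPM against 3.4 to 4.24) and ENSGALG00000045199 (19.5 CPM against 12.9 to 14.7), while female CON 1 was low for LSM5 (9.92 CPM against 12.9 to 14.3). ENSGALG00000004572 was high in female C 3 (20.1 CPM against 0.966 to 3.76).

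PSMB6 was high in males A 6 (50.4 CPM against 22.5 to 28.1) and B 5 (44.4 CPM against 23.9 to 28.4). On the Z, male A 6 was high for TEK (36.6 CPM against 21.8 to 26.3), male A 5 for RNF165 (8.97 CPM against 5.27 to 6.08), and female B 6 low for SLC1A1 (32 CPM against 40.8 to 43.7) and DMRT1 (0 CPM against 0.578 to 0.86). Among the interaction genes, ENSGALG00000040101 was high in female CON 1 (5.65 CPM against 0.0686 to 0.749) and male C 6 (5.26 CPM against 0.286 to 0.759), TMEM248 high in female CON 5 (59.8 CPM against 49.5 to 52.8), DNAJC12 low in female C 1 (140.5 CPM against 166 to 181) and SLC18A2 low in male CON 4 (5.88 CPM against 10.2 to 12). PGR was low in male CON 4 (0.496 CPM against 4.32 to 8.16), and VIP in males A 5 (5.52 CPM against 35.9 to 60.1) and C 6 (4.54 CPM against 24.2 to 40.5).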

How the results depend on the processing

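The count of 66 autosomal genes was the result most open to the processing. It was 116 with DESeq2, 103 with oligodendrocyte and region marker levels as covariates, 38 without the birds above 1000 CPM of TTR and 22 without group A. The count was 25 at an adjusted p under 0.01, 25 with a minimum fold as well, and 15 when adjusted without Z and W genes. Leaving out each bird gave 37 (without male A 6) to 99 (without female B 6), and 39 without male A 5. Without Z and W genes the count was 8 (without female B 2) to 18 (without female C 2) over the birds left out. With a replicate block 45 autosomal genes were called, 30 of them among the 66, and all 15 genes higher in females among these 30. The main fit did not pair birds by replicate number. Same-numbered birds of different groups had a median correlation of -0.0026 over 36 pairs, with 9 over 0.1 and a highest of 0.37. Other pairs across groups had a median of -0.0085. Such correlations cannot settle whether replicates were matched between treatments. Without group A 13 of the 15 were called. Z calls were 349 to 432 over the alternatives (411 over all birds; 388 to 410 with 1 bird left out), and the Z median was -0.51 to -0.48, also with 1 bird left out. Each interaction gave 1 autosomal call with DESeq2 and 0 to 1 with 1 bird left out (1 for temperature without male A 6 and for diet without female B 2). Over 95 named tested genes and all alternatives no fold change that passed changed sign, 320 values lost the call and 6 gained it. Causes were not tested. The 2 females of CON and of B, and the 2 males of A and of C, limit every value within a group.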

Other observations

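Values are log2 fold changes of females against males with their standard error, past an edgeR adjusted p of 0.05 over all genes except where stated, and the genes named here were chosen after their values were seen. Among the 35 further autosomal genes higher in females, several act in lipid and coenzyme metabolism: SCP2 (0.21 ± 0.045), which carries sterols into peroxisomes, ACOT13 (0.25 ± 0.059), a thioesterase of fatty acyl coenzyme A, SQLE (0.26 ± 0.069), the squalene epoxidase of cholesterol synthesis, PANK3 (0.21 ± 0.055), which starts coenzyme A synthesis, and OSBPL10 (0.26 ± 0.072), an oxysterol-binding protein. PDK1 (0.21 ± 0.045) inhibits pyruvate dehydrogenase. Others modify RNA, with EMG1 (0.32 ± 0.076) acting on ribosomal RNA, RNMT (0.15 ± 0.043) on messenger RNA caps and PUS7L (0.24 ± 0.067), a pseudouridine synthase. No enrichment was tested, and none of these 35 genes passed when adjusted without Z and W genes.

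Some relatives lay on both kinds of chromosome. CETN2 (0.30 ± 0.064), a centrin of the centriole, was higher in females while CETN3 on the Z was at -0.94 ± 0.046. DNAJA3 (0.15 ± 0.042), a mitochondrial co-chaperone, was higher while DNAJA1 on the Z was at -0.45 ± 0.058, and ACOT13 was higher while ACOT12 (-1.06 ± 0.16) on the Z was lower. Others went the same way. PIK3C2B (-0.23 ± 0.065) and PIK3C3 on the Z (-0.67 ± 0.044) were both lower in females. S1PR2 was lower too, with S1PR3 on the Z at -0.15 ± 0.099 (adjusted p = 0.665, edgeR). As 591 of 628 Z genes were below 0, an opposite direction is usual for an autosomal gene higher in females.

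Of 21 Z genes with a fitted value below -1, 20 passed the test. Among the lowest were FAM81B (-1.55 ± 0.42), SMC2 (-1.36 ± 0.18), a condensin subunit, PDE6B (the one that did not pass, at -1.30 ± 0.59, adjusted p = 0.407), and WDR36 (-1.27 ± 0.06), a ribosome assembly factor. COX7C (-1.05 ± 0.072), a subunit of cytochrome c oxidase, and MSH3 (-1.01 ± 0.066), a mismatch repair protein, lay near -1.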
